A study of Mus musculus with 87 samples.

Results

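Genes whose symbols begin with Kcn encode the subunits of potassium channels. The plate-based nuclear RNA table held 48526 genes, 99 of them Kcn genes, and the 69 with 50 or more counts summed over all 84 wells are the members described here. They comprised 31 of 40 pore-forming subunits of voltage-gated channels, 8 of 13 auxiliary subunits, 10 of 15 inward rectifiers (Kcnj), 9 of 14 leak channels (Kcnk), 9 of 12 calcium- or sodium-activated channels and 2 of 5 noncoding RNAs. Just inside the minimum stood Kcnk6 with 53 counts, and just outside stood Kcnf1 and Kcng4 with 47 counts each. Of the 69 members, 46 passed the filter on low counts in at least 1 bulk comparison of IFN-γ with saline. The other 23, with 53 to 342 counts over all wells, were tested in none of those comparisons.

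Potassium channels carry potassium out of the cell and so bring the membrane back toward rest. Voltage-gated subunits of the Kcna, Kcnb, Kcnc, Kcnd and Kcnq families shape the action potential and the interval to the next one, and calcium-activated channels of the Kcnn family pace the regular firing of midbrain dopamine neurons. In glia, inward rectifiers with Kcnj10 subunits clear the potassium that active neurons release, and leak channels of the Kcnk family set the resting potential.

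The study injected IFN-γ, a cytokine made by T cells and natural killer cells, or saline bilaterally into the ventral midbrain of C57BL/6J wildtype mice of both sexes aged 6 to 12 months. The IFN-γ dose was 40 ng in 400 nL, and tissue was taken 6, 24, 48 or 72 h later. Nuclei were sorted by fluorescence into fractions without (NeuN−) and with (NeuN+) the neuronal protein NeuN, and RNA was sequenced from pools of nuclei in plate wells. Nuclei of 1 saline and 2 IFN-γ mice were also sequenced singly at 48 h. In each fraction there were 6 IFN-γ wells at every time point, and 4 saline wells at 6 h, 6 at 24 h, 4 at 48 h and 4 at 72 h. Each group came from 2 or 3 mice, and wells were not tied to mice, so the p-values measure the spread between wells that may share a mouse. Comparisons at different time points used their own saline wells, while the NeuN+ against NeuN− comparison and the comparison of saline wells over time reused all of them.

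The sample labels call all 84 wells NeuN+, so the fraction was taken from the study's list of well barcodes, which puts 42 wells in each, and was checked against marker genes. A figure legend of the study counts 36 NeuN− and 48 NeuN+ wells instead, and the reason for the difference is not stated. Levels are given in CPM, the counts of a gene scaled to the total counts of its well. Rbfox3, which encodes NeuN, ran from 0 to 129.9 CPM with a median of 4.71 in NeuN− wells and from 93.8 to 206 with a median of 125 in NeuN+ wells. The highest NeuN− value was a saline well of 24 h. Mbp, a myelin gene of oligodendrocytes, ran from 382 to 2006 CPM in NeuN− wells and from 32.6 to 153 in NeuN+ wells, without overlap. B2m, an MHC class I gene that IFN-γ induces, was higher after IFN-γ in all 8 comparisons, by log2 1.60 (SE 0.25, adjusted p = 3.83e-06) in NeuN− wells at 6 h and by log2 4.23 (SE 0.20, adjusted p = 1.86e-14) in NeuN+ wells at 24 h. NeuN− wells held 20962 to 301445 counts, with a median of 110248, and NeuN+ wells 277113 to 1684374, with a median of 1064222. The members together made up 0.384 to 0.573% of the counts in NeuN− wells and 1.21 to 1.58% in NeuN+ wells.

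Where each channel gene was detected without IFN-γ was asked by comparing the fractions in the 18 saline wells of each, with time point in the model. Calls needed a log2 fold change over 0.5 in size and an adjusted p under 0.01, limits that 60.1% of all tested genes passed. Of 34 tested members 25 were higher in NeuN+ wells, against 32.4% of all tested genes, and 5 were higher in NeuN− wells, against 27.7%. The median log2 fold change was 2.49 for the tested members and 0.04 for all tested genes. A gene that is low in NeuN− wells could pass the filter only by being high in NeuN+ wells, so these counts describe the genes that passed and give no weight to the direction. By family, 13 of 17 tested voltage-gated subunits were higher in NeuN+ wells and 2 lower, and 6 of 6 calcium- or sodium-activated subunits were higher. Without the filter on low counts all 69 members were tested. Then edgeR called 55 of them, against 26.4% of all tested genes, and DESeq2 called 49, against 23.5%.

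**Figure D1:**
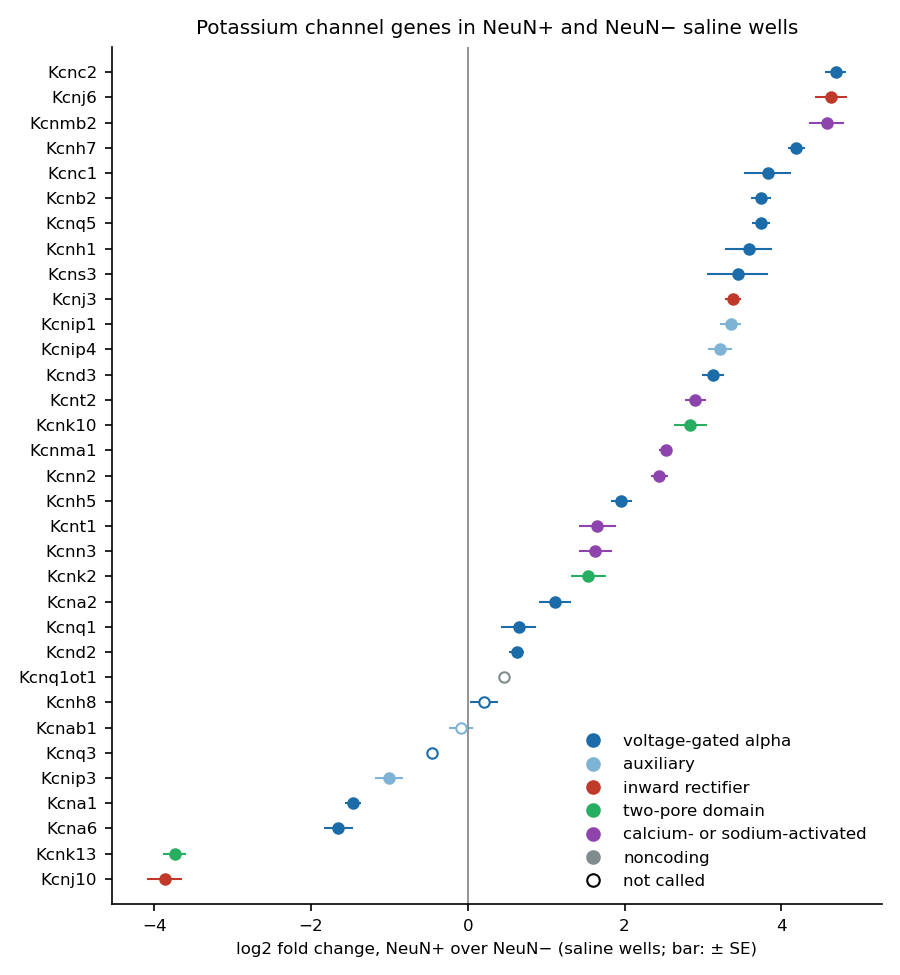
Log2 fold change (NeuN+ over NeuN−, saline wells, bars ± SE) of all but 1 of the 34 tested members, coloured by family, with open symbols for those not called. Kcnc2 stands at 4.69 and Kcnj10 at −3.87.

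The members with the highest ratio toward NeuN+ came from several families. Kcnc2 (ENSMUSG00000035681.6, GRCm38 chromosome 10, 112271121 to 112467024), a pore subunit of channels that let neurons fire fast, ran from 0 to 80 CPM with a median of 33.7 in NeuN− wells and from 718 to 1123 with a median of 857 in NeuN+ wells. The difference was log2 4.69 (SE 0.14, adjusted p = 3.04e-36), and the ranges did not overlap. Kcnj6 (ENSMUSG00000043301.15, chromosome 16, 94748636 to 94997701), a G-protein-gated inward rectifier opened by dopamine D2 and GABA-B receptors, ran from 177 to 286 CPM in NeuN+ wells and from 0 to 47.7 in NeuN− wells, 9 of which had no count. This was a log2 difference of 4.63 (SE 0.20, adjusted p = 4.77e-28). Kcnmb2, an auxiliary subunit that inactivates large-conductance calcium-activated channels, differed by log2 4.58 (SE 0.22). Kcnh7, an ether-à-go-go-related subunit, differed by log2 4.19 (SE 0.11), and the fast-firing subunit Kcnc1 by log2 3.82 (SE 0.30). The delayed rectifier Kcnb2 differed by log2 3.74 (SE 0.12), as did the M-current subunit Kcnq5 (SE 0.11). For each of these members every NeuN− well was below every NeuN+ well.

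Other well-known neuronal members were also higher in NeuN+ wells by smaller ratios. The A-type subunit Kcnd3 differed by log2 3.13 (SE 0.14) and Kcnip4, a calcium-binding partner of A-type channels, by 3.22 (SE 0.15). Kcnma1, the large-conductance calcium-activated channel, differed by log2 2.52 (SE 0.09), and Kcnn3, the small-conductance channel of dopamine neurons, by 1.62 (SE 0.21). Kcna2, a low-threshold axonal channel, and Kcnk2, a mechanosensitive leak channel, differed by log2 1.11 (SE 0.20) and 1.54 (SE 0.22). Kcnd2, the other main A-type pore subunit, was high in both fractions. It ran from 654 to 1698 CPM in NeuN− wells and from 1310.0 to 2291 in NeuN+ wells, overlapping ranges with a log2 difference of 0.62 (SE 0.10, adjusted p = 7.60e-08).

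Toward NeuN− stood 5 members. Kcnj10 (ENSMUSG00000044708.5, chromosome 1, 172341210 to 172374085), the glial inward rectifier that buffers extracellular potassium, ran from 25.3 to 146 CPM with a median of 87.1 in NeuN− wells and from 0 to 10.3 with a median of 4.96 in NeuN+ wells. The difference was log2 −3.87 (SE 0.23, adjusted p = 1.82e-22), without overlap. Kcnk13 (ENSMUSG00000045404.15, chromosome 12, 99964499 to 100062682), a halothane-inhibited leak channel known from microglia, ran from 188 to 406 CPM in NeuN− wells and from 8.78 to 39.3 in NeuN+ wells, a log2 fold change of −3.74 (SE 0.14, adjusted p = 6.82e-31). The ranges of Kcnk13 lay apart as well. Kcna1 (ENSMUSG00000047976.4, chromosome 6, 126640397 to 126646384), a low-threshold subunit known from axons, differed by log2 −1.46 (SE 0.10), and its relative Kcna6 by −1.65 (SE 0.19). Kcnip3 (ENSMUSG00000079056.12, chromosome 2, 127456498 to 127522094), a calcium-binding partner of A-type channels that also binds DNA, differed by log2 −1.0 (SE 0.18), with overlapping ranges of 19.7 to 99.1 CPM in NeuN− wells and 18 to 48.7 in NeuN+ wells.

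The 4 tested members that were not called were Kcnq3, Kcnq1ot1, Kcnh8 and Kcnab1. Kcnq3 (ENSMUSG00000056258.8, chromosome 15, 65986387 to 66286642), a subunit of the M-current, stood at log2 −0.46 (SE 0.06, adjusted p = 4.06e-10), inside the fold limit. Kcnq1ot1 (ENSMUSG00000101609.1, chromosome 7, 143203458 to 143296549), an imprinted noncoding RNA transcribed on the minus strand within Kcnq1, stood at log2 0.47 (SE 0.07). How counting used the strand is not stated, so counts of Kcnq1, Kcnq1ot1 and the other members that overlap a gene on the opposite strand, 31 in all, may mix both. The eag-like subunit Kcnh8 and the beta subunit Kcnab1 had log2 fold changes of 0.21 (SE 0.18) and −0.08 (SE 0.16).

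Several textbook members did not pass the filter of the fraction comparison. Kcnk9, an acid-sensitive leak channel, had 0 counts in the 18 saline NeuN− wells and ran from 3.79 to 18.6 CPM in NeuN+ wells. Kcnj9, a partner of Kcnj6, had 3 counts in NeuN− wells and ran from 6.73 to 19.7 CPM in NeuN+ wells. Kcnj11, the pore of ATP-sensitive channels, had 1 count in NeuN− and 31 in NeuN+ wells. The weakly rectifying leak channel Kcnk1 had a median of 7.31 CPM in NeuN− and 25 in NeuN+ wells, from 16 and 511 counts. The classical inward rectifier Kcnj2 had medians of 14.7 and 4.52 CPM, from 31 and 81 counts. Kcnj16, which joins Kcnj10 in glial channels, had 9.13 and 2.71 CPM, from 22 and 66 counts. Because NeuN− wells held fewer counts in all, the counts do not rank the fractions. Without the filter, and with DESeq2, all of these members but Kcnj11 were called.

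Genes of proteins that join or serve potassium channels were compared between the fractions too. Of 36 listed partner genes 24 were tested in saline wells. Higher in NeuN+ wells were 16, against 32.4% of all tested genes, and higher in NeuN− wells 5, against 27.7%, with a median log2 fold change of 2.17. The filter favours the first direction here as well. Among the former were Slc12a5, the neuronal potassium-chloride exporter, by log2 4.10 (SE 0.25) and the dopamine D2 receptor Drd2 by 3.74 (SE 0.37). Among the latter were the sodium-potassium-chloride importer Slc12a2, at log2 −2.91 (SE 0.06), and the water channel Aqp4, at −2.90 (SE 0.31).

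How far saline wells of different time points, and so of different mice, differ among themselves was tested by fraction. In NeuN− wells 2 of 13 tested members differed over time, against 2.34% of all tested genes: Kcnd2 (adjusted p = 0.00233) and Kcnip4 (adjusted p = 0.0428). Saline Kcnd2 ran from 1016 to 1289.5 CPM at 6 h and from 654 to 1570.3 at 24 h in that fraction. It ran from 712 to 1140.4 CPM at 48 h and from 1546 to 1698 at 72 h. In NeuN+ wells edgeR called 0 of 47 tested members, against 0.428% of all tested genes; 7 had an unadjusted p under 0.05, and DESeq2 called 0.

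IFN-γ was then compared with saline in NeuN− wells at each time point, with a gene called at an adjusted p under 0.05. At 6 h 3 of 9 tested members fell, against 15.9% of all tested genes lower and 33.1% called in either direction. At 24 h 5 of 8 were called, against 41.3%, 2 of them higher (20% of all tested genes) and 3 lower (21.3%). At 48 h 3 of 11 were called, against 6.21%, 2 higher (4.21%) and 1 lower (2%), and at 72 h 1 of 11, lower, against 3.98% called and 2.33% lower. The members' median log2 fold change was −0.37 at 6 h, where that of all tested genes was −0.00, and −0.30 at 24 h, where it was 0.01. It was −0.16 against −0.01 at 48 h and 0.11 against 0.00 at 72 h. By the study's stricter limits, a log2 fold change over 1 in size with an adjusted p under 0.01, 1 member was called at 6 h (11.7% of all tested genes) and 3 at 24 h (14.6%). Without the filter on low counts the calls of Kcnq3 and Kcnd2 at 6 h, Kcnk13 at 24 h and Kcnn2 at 48 h ended, and Kcnb2 at 6 h and Kcnq1 and Kcnk10 at 24 h were gained. In bulk wells fewer nuclei of a type and less RNA per nucleus cannot be told apart.

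The A-type subunit Kcnd2 (ENSMUSG00000060882.5, chromosome 6, 21215503 to 21729805) was called at all 4 time points in NeuN− wells, lower at 6 h and 72 h and higher at 24 h and 48 h. At 6 h the saline wells stood at 1016, 1088, 1260.1 and 1289.5 CPM and the IFN-γ wells ran from 715 to 1049.5 with a median of 886, a log2 fold change of −0.44 (SE 0.11, adjusted p = 0.00182). All but 1 IFN-γ well lay below the saline range. At 24 h IFN-γ wells ran from 1884 to 2339 CPM with a median of 2119 and saline wells from 654 to 1570.3 with a median of 1046, a log2 fold change of 0.86 (SE 0.14, adjusted p = 1.53e-05). Every IFN-γ well was above every saline well at 24 h. At 48 h the saline wells stood at 712, 733, 845 and 1140.4 CPM and the IFN-γ wells ran from 995 to 1719 with a median of 1361, a log2 fold change of 0.72 (SE 0.13, adjusted p = 0.000233). Here 5 of 6 IFN-γ wells exceeded the saline range. At 72 h the saline wells stood at 1546, 1607, 1697 and 1698 CPM and the IFN-γ wells ran from 1039.6 to 1402 with a median of 1225, a log2 fold change of −0.45 (SE 0.09, adjusted p = 0.00123). The groups did not overlap, but against the saline wells of all time points the value at 72 h became 0.01 (adjusted p = 0.991) and that at 48 h 0.25 (adjusted p = 0.486). Differences between time points were not tested.

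Kcnq3 and Kcna1 were lower at 24 h. Kcnq3 had saline wells at 799.7, 827, 897 and 951 CPM at 6 h, and its IFN-γ wells ran from 609.8 to 820.0 with a median of 696, a log2 fold change of −0.37 (SE 0.11, adjusted p = 0.0105). At 6 h 5 of 6 IFN-γ wells lay below the saline range of Kcnq3. At 24 h Kcnq3 ran from 281 to 478 CPM with a median of 349 after IFN-γ and from 750.3 to 1091 with a median of 879 after saline, a log2 fold change of −1.39 (SE 0.12, adjusted p = 2.52e-10). Kcna1 ran from 14.7 to 69 CPM with a median of 40.5 after IFN-γ and from 121 to 198 with a median of 151 after saline at 24 h, a log2 fold change of −1.91 (SE 0.27, adjusted p = 8.96e-07). Neither gene's groups overlapped at 24 h.

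The leak channel Kcnk13 fell early. At 6 h its saline wells stood at 296, 299.7, 339.9 and 406 CPM and its IFN-γ wells ran from 95.4 to 204 with a median of 167, a log2 fold change of −1.09 (SE 0.17, adjusted p = 4.24e-06). The groups of Kcnk13 did not overlap at 6 h. At 24 h they did, with 176 to 265 CPM after IFN-γ (median 207) and 188 to 386 after saline (median 274), and 2 of 6 IFN-γ wells were below the saline range. The log2 fold change at 24 h was −0.51 (SE 0.18, adjusted p = 0.0214) and ran from −0.60 to −0.44 with single wells left out. Its call ended without saline replicate 5 or IFN-γ replicate 1, 4 or 6, with an adjusted p of up to 0.0721, and DESeq2 gave 0.108. At 48 h and 72 h Kcnk13 had log2 fold changes of 0.03 (SE 0.18) and 0.11 (SE 0.16), neither called.

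Auxiliary and calcium-activated members gave the remaining calls. Kcnip3 ran from 139 to 339 CPM with a median of 161 after IFN-γ at 24 h and from 24.2 to 75.4 with a median of 56.9 after saline, a log2 fold change of 1.46 (SE 0.29, adjusted p = 0.000159). All IFN-γ wells of Kcnip3 were above the saline range, and replicate 5 at 339 CPM stood apart from the others. Kcnip4 (ENSMUSG00000029088.16, chromosome 5, 48389502 to 49524907) had saline wells at 253, 312, 344 and 581 CPM at 48 h, and its IFN-γ wells ran from 152 to 315 with a median of 255. The groups overlapped, and the log2 fold change of −0.65 (SE 0.20, adjusted p = 0.0370) ran from −0.82 to −0.28 with single wells left out. The Kcnip4 call ended without saline replicate 1 or IFN-γ replicate 3 or 6, with an adjusted p of up to 0.606, and with DESeq2 (0.151). Kcnn2, a small-conductance calcium-activated channel, had saline wells at 25.9, 29.5, 74.9 and 84.2 CPM at 48 h, and its IFN-γ wells ran from 63 to 169 with a median of 129.6. With 4 of 6 IFN-γ wells above the saline range, the log2 fold change of 1.21 (SE 0.37, adjusted p = 0.0384) ran from 0.83 to 1.58 in 6 of 10 fits with single wells left out. In the other 4 Kcnn2 did not pass the filter and was not tested. The call ended without saline replicate 1 or 3, with an adjusted p of up to 0.305, and with DESeq2 (0.109). Against the saline wells of all time points neither Kcnip4 (log2 −0.21) nor Kcnn2 (log2 0.43) was called.

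**Figure D2:**
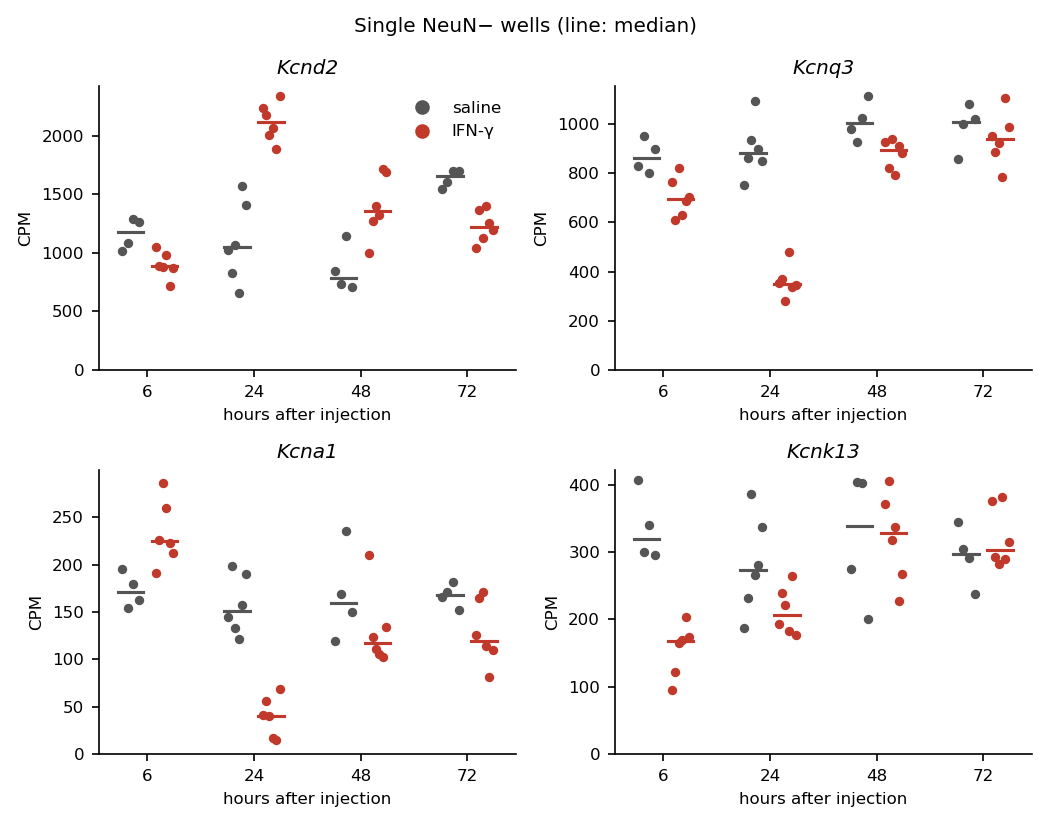
CPM of Kcnd2, Kcnq3, Kcna1 and Kcnk13 in single NeuN− wells after saline or IFN-γ at 6, 24, 48 and 72 h, each point a well and each line a median. At 24 h the IFN-γ wells of Kcnd2 sit between 1884 and 2339, above the saline wells, and those of Kcnq3 between 281 and 478, below them.

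Markers of glia and of neurons moved in the same NeuN− wells. The 6 oligodendrocyte markers summed to 3816 to 4872 CPM after IFN-γ and 6921 to 7973 after saline at 6 h, where 4 of 6 were lower and Mag was higher. The astrocyte markers summed to 668 to 1001.8 CPM against 704 to 819.7 at 6 h, with Slc1a2 the 1 called of 3, higher. At 24 h the oligodendrocyte markers summed to 2347 to 2944 after IFN-γ and 7044 to 8623 after saline, with 6 of 6 lower. The astrocyte markers summed to 1705 to 2267 CPM after IFN-γ and 557 to 1207 after saline at 24 h, with 3 of 3 tested higher and Slc1a2 the most abundant. At 48 h the astrocyte sum was 1022 to 1317 against 461 to 792, with 2 of 3 higher, and the oligodendrocyte sum 6443 to 7774 against 7786 to 8692, with Mal lower. At 72 h the astrocyte sum was 887 to 1125 against 1136 to 1225, with none of 3 called, and the oligodendrocyte sum 7326 to 8260.4 against 7979.6 to 8467, with 2 lower. The microglial markers summed to 0 to 125 CPM against 219.6 to 319.9 at 6 h and 147 to 230.3 against 178 to 337 at 24 h, and none passed the filter. Of the 2 tested thalamic markers Rora was lower at 6 h (log2 −0.52), higher at 24 h (0.81) and 48 h (0.60) and lower at 72 h (−0.53). The other, Tcf7l2, was higher at 6 h (1.28), opposite to Rora, and at 24 h (0.92). The neuron marker Syt1 was lower at 6 h (log2 −1.06) and 24 h (−1.22). Their part in the differences of the channel genes was not tested.

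Sex-linked genes also moved with treatment. At 6 h the Y-linked Eif2s3y ran from 0 to 9.65 CPM after IFN-γ and from 110.0 to 159.6 after saline in NeuN− wells, and from 0 to 2 against 65 to 80.9 in NeuN+ wells. At 24 h all IFN-γ wells held more Eif2s3y than Xist, the transcript of the inactive X chromosome, but 2 of 6 saline wells did in each fraction. Restricting saline to those wells, an alternative chosen after seeing the data, called 7 of 14 tested NeuN− members at 24 h. They were the 5 above with Kcnq1 and Kcnn2. That setting called 763 genes in all, where the main fit called 777 and tested 8 members. How many genes it tested in all is not reported here, so 7 of 14 has no share of all tested genes beside it. At 6 h the groups did not overlap in Eif2s3y in either fraction, so no saline wells matched the IFN-γ wells. The part of sex in the differences at 6 h could not be tested.

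Among the 36 partner genes, 12 were tested in NeuN− wells at 6 h, with 1 higher, 4 lower and a median log2 fold change of −0.33. Of all tested genes 33.1% were called at 6 h, with 15.9% lower. Ank3, the ankyrin that anchors channels at the axon initial segment, was higher by log2 0.43 (SE 0.10, adjusted p = 0.000548). Gabbr1, a GABA-B receptor subunit, stood at log2 −0.89 (SE 0.24), Adam22, a receptor that joins axonal channel complexes, at −0.72 (SE 0.17) and the scaffold Dlg2 at −0.52 (SE 0.10). At 24 h 10 were tested, with 2 higher (20% of all tested genes), 4 lower (21.3%) and a median of −0.19. Slc12a2 ran from 250.3 to 472 CPM with a median of 363 after IFN-γ and from 606 to 1008 with a median of 801 after saline, a log2 fold change of −1.28 (SE 0.15, adjusted p = 2.65e-08) without overlap. Adam22 and Cntnap2, which clusters Kcna channels beside the node of Ranvier, stood at log2 −1.13 (SE 0.19) and −1.01 (SE 0.35). The signalling regulator Rgs7 was higher by log2 0.97 (SE 0.20). With edgeR 0 of 13 partner genes were called at 48 h and 0 of 13 at 72 h, against 6.21 and 3.98% of all tested genes. An unadjusted p under 0.05 was found for 5 and 1 of them.

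In NeuN+ wells the same comparison tested more members. At 6 h 6 of 43 were called, against 8.6% of all tested genes, and each was lower, against 4.12%. At 24 h 13 of 42 were called, against 11.5%, 4 higher (6.23%) and 9 lower (5.3%). At 48 h edgeR called 0 of 44, against 0.867%; 10 had an unadjusted p under 0.05, and DESeq2 called 0. At 72 h 5 of 41 were called, against 7.17%, 2 higher (3.37%) and 3 lower (3.8%). The members' median log2 fold change was −0.14 at 6 h and −0.07 at 24 h, where that of all tested genes was −0.01, and −0.03 at 48 h and −0.00 at 72 h, where that of all tested genes was −0.01 and −0.00. By the study's limits 1 member was called at 24 h, against 1.73% of all tested genes. Thinned to 110248 counts per well, the NeuN− median, these wells gave 0 of 23 members called at 6 h, 3 of 19 at 24 h and 2 of 24 at 72 h, against 2.19, 2.99 and 1.71% of all tested genes.

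**Figure D3:**
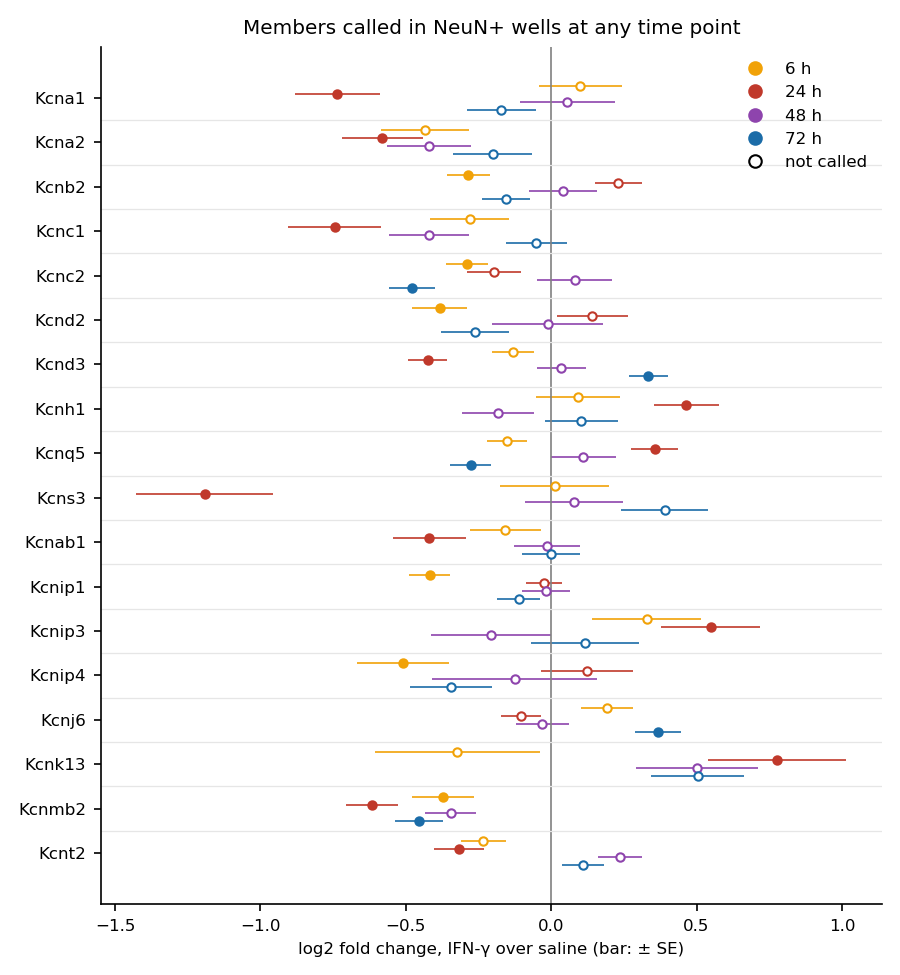
Log2 fold change (IFN-γ over saline, bars ± SE) at 6, 24, 48 and 72 h of 18 members called at some time in NeuN+ wells. Kcnd3 stands at −0.43 at 24 h and 0.33 at 72 h, and Kcnmb2 at −0.62 at 24 h.

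In NeuN+ wells the A-type subunit Kcnd2 and the partners Kcnip1 and Kcnip4 were called at 6 h. Kcnip3 was called at 24 h and the A-type subunit Kcnd3 at 24 h and 72 h. Kcnd2 had saline wells at 1764, 1788, 1817 and 2107 CPM at 6 h, and its IFN-γ wells ran from 1343 to 1667 with a median of 1499, a log2 fold change of −0.38 (SE 0.10, adjusted p = 0.00905). Its groups did not overlap at 6 h, but the call ended against the saline wells of all time points (log2 −0.27, adjusted p = 0.103). Kcnd2 stood at log2 0.14 (SE 0.12) at 24 h, not called. Kcnd3 (ENSMUSG00000040896.16, chromosome 3, 105452330 to 105674002) ran from 181 to 233 CPM with a median of 211 after IFN-γ and from 256 to 332 with a median of 289 after saline at 24 h, a log2 fold change of −0.43 (SE 0.07, adjusted p = 5.30e-05). At 72 h the saline wells of Kcnd3 stood at 202, 239, 254 and 278 CPM and the IFN-γ wells ran from 292 to 347 with a median of 322, a log2 fold change of 0.33 (SE 0.07, adjusted p = 0.00130). So Kcnd3 was below saline in every IFN-γ well at 24 h and above it in every one at 72 h; the difference between the times was not tested.

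Of the calcium-binding partners, Kcnip1 had saline wells at 202, 256, 284 and 285 CPM at 6 h and IFN-γ wells from 196 to 216 with a median of 209. It stood at log2 −0.42 (SE 0.07, adjusted p = 8.69e-05), although the lowest saline well overlapped the IFN-γ wells and 2 of 6 lay below it. Kcnip4 had saline wells at 2479.7, 2580.4, 2739 and 4605 CPM at 6 h, and its IFN-γ wells ran from 1803 to 2933 with a median of 2163, a log2 fold change of −0.51 (SE 0.16, adjusted p = 0.0405). The well at 4605 was saline replicate 5, and values with single wells left out ran from −0.62 to −0.21. The call ended without that well or without IFN-γ replicate 7, 8, 9 or 12, with an adjusted p of up to 0.289, and with DESeq2 (0.295). Kcnip3 ran from 34.2 to 52.6 CPM with a median of 46.2 after IFN-γ at 24 h and from 20.1 to 48.7 with a median of 27.7 after saline, a log2 fold change of 0.55 (SE 0.17, adjusted p = 0.0341). Here 2 of 6 IFN-γ wells exceeded the saline range. The Kcnip3 call ended without saline replicate 7, 8 or 12 or IFN-γ replicate 8, 9, 10 or 12, with an adjusted p of up to 0.0884, and with DESeq2 (0.0642).

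The fast-firing subunit Kcnc2 was lower at 6 h and 72 h and its relative Kcnc1 at 24 h. Kcnc2 had saline wells at 794, 799.6, 812 and 895 CPM at 6 h and IFN-γ wells from 676 to 762 with a median of 704, a log2 fold change of −0.29 (SE 0.07, adjusted p = 0.00764). At 72 h its saline wells stood at 982, 990.3, 1005 and 1030.2 CPM and its IFN-γ wells ran from 685 to 791 with a median of 754, a log2 fold change of −0.48 (SE 0.08, adjusted p = 9.34e-05). The groups of Kcnc2 overlapped at neither time, but its call ended at 6 h without saline replicate 7 (adjusted p = 0.0524) and at 72 h against the saline wells of all time points (log2 −0.26, adjusted p = 0.0613). Kcnc1 ran from 44.6 to 66.4 CPM with a median of 52.3 after IFN-γ at 24 h and from 62.6 to 148 with a median of 78.3 after saline, a log2 fold change of −0.74 (SE 0.16, adjusted p = 0.00237). All but 1 of its IFN-γ wells were below the saline range.

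Kcnb2 was lower at 6 h, and Kcns3, Kcna1, Kcna2 and Kcnab1 were lower at 24 h. The delayed rectifier Kcnb2 had saline wells at 869.9, 937, 953 and 1000.1 CPM at 6 h and IFN-γ wells from 787 to 858 with a median of 791, a log2 fold change of −0.28 (SE 0.07, adjusted p = 0.0129). Its groups lay apart, and its call ended without saline replicate 8 (adjusted p = 0.0559). Kcns3 (ENSMUSG00000043673.10, chromosome 12, 11090202 to 11151056), a silent subunit that modifies delayed rectifiers, ran from 8.81 to 31.3 CPM with a median of 17 after IFN-γ at 24 h and from 22.5 to 63.3 with a median of 43 after saline. With 5 of 6 IFN-γ wells below the saline range, it fell by 1.19 on the log2 scale (SE 0.24, adjusted p = 0.00112), the only NeuN+ call within the study's limits. With the 2 sex-matched saline wells its call ended (log2 −0.86, adjusted p = 0.0695). Kcna1 ran from 21.9 to 49.4 CPM (median 33.3) against 47.1 to 70.1 (median 65.5) at 24 h, a log2 fold change of −0.74 (SE 0.15, adjusted p = 0.00117). Kcna2 ran from 31.3 to 42.4 CPM (median 39.2) against 35.8 to 70.8 (median 57.7), a log2 fold change of −0.58 (SE 0.14, adjusted p = 0.00651). For Kcna1 5 and for Kcna2 2 of 6 IFN-γ wells lay below the saline range. Kcnab1, a beta subunit of Kcna channels named after its value was seen, had a log2 fold change of −0.42 (SE 0.12, adjusted p = 0.0280) at 24 h. The Kcnab1 call ended without saline replicate 11 or 12 or IFN-γ replicate 7, 9 or 12, with an adjusted p of up to 0.0733, and with DESeq2 (0.0878).

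The M-current subunit Kcnq5 (ENSMUSG00000028033.16, chromosome 1, 21398403 to 21961942) ran from 802 to 989 CPM with a median of 879 after IFN-γ at 24 h and from 663 to 764 with a median of 710.0 after saline, a log2 fold change of 0.36 (SE 0.08, adjusted p = 0.00424). At 72 h its saline wells stood at 681, 691, 693 and 756 CPM and its IFN-γ wells ran from 583 to 625 with a median of 600.2, a log2 fold change of −0.28 (SE 0.07, adjusted p = 0.0110). Kcnq5 was thus above every saline well at 24 h and below every one at 72 h, and the difference between the times was not tested. Its relative Kcnq3 stood at log2 −0.10 (SE 0.07) at 24 h, not called. Kcnh1, an ether-à-go-go channel, ran from 60.9 to 79.3 CPM (median 77.5) against 43.9 to 75.5 (median 51.4) at 24 h, a log2 fold change of 0.46 (SE 0.11, adjusted p = 0.00651). In 4 of 6 IFN-γ wells Kcnh1 exceeded the saline range, and with the 2 sex-matched saline wells its call ended (log2 0.34, adjusted p = 0.179).

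Calcium- and sodium-activated channels gave calls for auxiliary and pore subunits. Kcnmb2 (ENSMUSG00000037610.15, chromosome 3, 31902507 to 32200180) was lower at 6, 24 and 72 h. At 6 h its saline wells stood at 136, 137, 152 and 184 CPM and its IFN-γ wells ran from 101 to 149.8 with a median of 118, overlapping groups with a log2 fold change of −0.37 (SE 0.11, adjusted p = 0.0234). The call at 6 h ended without saline replicate 7 or IFN-γ replicate 12, with an adjusted p of up to 0.210. At 24 h Kcnmb2 ran from 102 to 121 CPM (median 113) against 139 to 231 (median 173), a log2 fold change of −0.62 (SE 0.09, adjusted p = 2.29e-05) without overlap. At 72 h its saline wells stood at 147, 154, 179 and 196 CPM and its IFN-γ wells ran from 113 to 148 with a median of 127, a log2 fold change of −0.46 (SE 0.08, adjusted p = 0.000386) with 5 of 6 IFN-γ wells below saline. Kcnma1, which Kcnmb2 joins, stood at −0.09 (SE 0.07), −0.13 (SE 0.08) and −0.20 (SE 0.08) at those times, not called. Kcnt2, a sodium-activated channel named after its value was seen, had a log2 fold change of −0.32 (SE 0.09, adjusted p = 0.0166) at 24 h, and DESeq2 gave an adjusted p of 0.0564.

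The inward rectifier Kcnj6 had saline wells at 187, 200.3, 201 and 235 CPM at 72 h, and its IFN-γ wells ran from 243 to 297 with a median of 276, a log2 fold change of 0.37 (SE 0.08, adjusted p = 0.00268). The groups of Kcnj6 did not overlap, but against the saline wells of all time points the call ended (log2 0.17, adjusted p = 0.120). Kcnn3, the calcium-activated channel of dopamine neurons, stood at log2 0.34 (SE 0.11, adjusted p = 0.0539) at 72 h, not called. The leak channel Kcnk13, low in this fraction, ran from 31.1 to 48.5 CPM (median 41.5) after IFN-γ at 24 h and from 8.78 to 39.3 (median 17.1) after saline, overlapping groups with a log2 fold change of 0.78 (SE 0.24, adjusted p = 0.0336). The Kcnk13 call ended without saline replicate 3, 4, 7 or 8 or IFN-γ replicate 7, 8, 10 or 12, with an adjusted p of up to 0.0813. With the sex-matched saline wells it stood at log2 0.09 (adjusted p = 0.846). Of the other leak channels, Kcnk2 stood at log2 0.17 (SE 0.13), Kcnk9 at 0.51 (SE 0.29) and Kcnk1 at −0.38 (SE 0.19) at 24 h, none called.

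Markers of neuron classes moved in these NeuN+ wells. At 24 h the GABA markers summed to 114 to 164 CPM after IFN-γ and 235 to 348 after saline, with 3 of 3 tested lower and Gad2 the most abundant at 82.2 to 114 against 147 to 207. The thalamic markers, led by Rora, summed to 952 to 1111 CPM against 1304 to 1638 at 6 h, with 4 of 4 tested lower, and to 1104 to 1230.3 against 1342 to 1766 at 24 h, with 4 of 5 lower. At 48 h 3 of the 5 thalamic markers were higher (Lef1, Synpo2 and Tcf7l2), with sums of 1351 to 1638 CPM against 1233 to 1463, and at 72 h 4 of 5 were lower, with 1099.9 to 1379 against 1602 to 1655. At 72 h the dopamine markers summed to 469 to 595 CPM against 165 to 271, with 5 of 6 tested higher and Slc18a2 the most abundant at 188 to 266 against 50.8 to 115. The VGLUT2 markers summed to 1418 to 1536 CPM against 2038 to 2176 at 72 h, with 3 of 3 lower and Ntng1 the most abundant, and to 1536 to 1684 against 1841 to 2045 at 6 h, with 2 of 3 lower. Oligodendrocyte markers in this fraction summed to 157 to 209 CPM against 288 to 403 at 6 h, with 3 of 5 lower, to 256 to 313 against 289.8 to 468 at 24 h, with 3 of 5 lower and Mag higher, and to 600.1 to 700.1 against 344 to 418 at 72 h, with 5 of 6 higher. Astrocyte markers summed to 118 to 147 CPM against 137 to 223 at 6 h, with 2 of 3 lower, and to 279.8 to 307 against 100.3 to 225 at 24 h, with 3 of 3 higher. They summed to 125 to 182 CPM against 83.6 to 124 at 48 h, with 2 of 3 higher, and to 211 to 247 against 135 to 197 at 72 h, with 2 of 4 higher. At the other times at most 1 marker of the dopamine, GABA and VGLUT2 lists was called. Of 4 general neuron markers Rbfox1 was lower at 6 h (log2 −0.49) and 72 h (−0.40) and Rbfox3, the gene of the sorted protein, at 24 h (−0.31). The oligodendrocyte precursor marker Vcan was higher at 72 h and the choroid plexus marker Ttr lower at 48 h. No marker of these lists had 0 counts in a whole group of NeuN+ wells. Their part in the differences of the channel genes was not tested. With sex-matched saline wells at 24 h 13 of 49 tested members were called, 10 of them among the 13 above. Kcnh1, Kcnk13 and Kcns3 were lost and Kcnk1, Kcnj9 and Kcnc2 gained. That setting called 832 genes in all, where the main fit called 1086 and tested 42 members. How many genes it tested in all is not reported here, so 13 of 49 has no share of all tested genes beside it.

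The partner genes in NeuN+ wells included a steady change of the sodium pump. Atp1b1, a pump subunit of neurons, was lower at each time, by log2 −0.46 (SE 0.08) at 6 h, −0.41 (SE 0.08) at 24 h, −0.42 (SE 0.08) at 48 h and −0.43 (SE 0.07) at 72 h. At 48 h it ran from 173.5 to 211 CPM after IFN-γ and from 247 to 277 after saline, without overlap. At 6 h 28 partner genes were tested, with 0 higher, 5 lower and 9 at an unadjusted p under 0.05. Of all tested genes 8.6% were called at 6 h, with 4.12% lower. At 24 h 28 were tested, with 1 higher (6.23% of all tested genes) and 4 lower (5.3%). Among the lower were Abcc8, the sulfonylurea receptor that joins Kcnj11, at −0.81 (SE 0.21) and the GABA-B receptor subunit Gabbr2 at −0.42 (SE 0.09). At 48 h Atp1b1 was the 1 called of 28, against 0.867% of all tested genes. At 72 h 29 were tested, with 2 higher (3.37% of all tested genes) and 3 lower (3.8%). Drd2, the receptor that opens Kcnj6, ran from 43.9 to 71.8 CPM after IFN-γ and from 19.9 to 39.7 after saline at 72 h, a log2 fold change of 0.91 (SE 0.17, adjusted p = 0.000419) without overlap.

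Whether the effect of IFN-γ differed between the fractions was tested by the interaction of fraction and treatment, given as the NeuN+ minus the NeuN− log2 fold change. At 24 h 8 of 37 tested members were called, against 11.1% of all tested genes, 3 higher (5.31%) and 5 lower (5.77%). The members' median was −0.13 against −0.04. Among the 5 lower were Kcnd3, Kcnk10 and Kcnj6, which passed the filter by their NeuN+ counts. These counts therefore give no weight to the direction. Kcnq3 differed by 1.18 (SE 0.15, adjusted p = 5.48e-08), Kcnk13 by 1.18 (SE 0.30, adjusted p = 0.00477) and Kcna1 by 1.09 (SE 0.32, adjusted p = 0.0182). These are the members that fell in NeuN− wells at 24 h, but the falls were not confined to that fraction. Kcna1 was called lower in NeuN+ wells too (log2 −0.74). Kcnk13 fell by log2 −0.51 in NeuN− wells and rose by 0.78 in NeuN+ wells, a call that ended with the sex-matched saline wells. Kcnq3 was not called in NeuN+ wells. Kcnd2 differed by −0.80 (SE 0.21, adjusted p = 0.00601) and Kcnd3 by −1.58 (SE 0.41, adjusted p = 0.00588). Kcnip3 differed by −1.03 (SE 0.35, adjusted p = 0.0456), a call that ended with DESeq2 (0.0727) and with size factors of the relative log expression method (0.0735). Kcnk10, a mechanosensitive leak channel, differed by −1.91 (SE 0.53, adjusted p = 0.0105) and Kcnj6 by −2.18 (SE 0.67, adjusted p = 0.0308), the latter with 0.0956 in DESeq2. In NeuN− wells Kcnk10 ran from 20.1 to 73.6 CPM after IFN-γ and from 0 to 29.7 after saline at 24 h, Kcnj6 from 18.6 to 43.5 against 0 to 29.3 and Kcnd3 from 34.8 to 53.7 against 0 to 48.5. All 3 were too low there to pass the filter of the single-fraction comparison, and entered the interaction test by their NeuN+ counts. No difference between the fractions is therefore read from their values. Without any filter the interaction calls of Kcna1 and Kcnj6 ended, and with NeuN+ counts thinned those of Kcnk13, Kcna1, Kcnip3, Kcnk10 and Kcnj6.

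At the other times edgeR called 0 interactions among the members. At 6 h 33 were tested, against 8.65% of all tested genes called; 6 had an unadjusted p under 0.05, and DESeq2 called 2, Kcnq5 and Kcnb2, both named after their values were seen. At 48 h 34 were tested, against 0.723%, 5 had an unadjusted p under 0.05, and DESeq2 called 1, Kcnn2. At 72 h 36 were tested, against 1.87%, 0 had an unadjusted p under 0.05, and DESeq2 called 0. The members' medians were 0.20, 0.05 and 0.12 at 6, 48 and 72 h, where those of all tested genes were 0.01, −0.01 and 0.02.

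The single nuclei gave levels by neuron class. The 4699 nuclei, with no barcode shared between mice, formed 28 clusters when Kcn genes were kept out of the clustering. Clusters were grouped into classes by marker genes: dopamine-like with 174 nuclei of the saline mouse and 154 and 109 of the IFN-γ mice, GABA-like with 201, 258 and 196, and VGLUT2-like with 149, 364 and 155. Each mouse gave 1016, 2574 and 1109 nuclei in all, with a median of 14645.5, 9404.5 and 11767 counts per nucleus. Levels below are CPM of the counts summed per mouse and class, in the order saline, IFN-γ replicate 1 and IFN-γ replicate 2. Their 95% intervals are exact Poisson intervals that cover counting error only. Classes are made from the same nuclei, so differences between them are a description without a test.

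The highest ratios in dopamine-like nuclei were those of Kcnn3, Kcnj6, Kcns3 and Kcnd3. Kcnn3 (ENSMUSG00000000794.9, chromosome 3, 89520164 to 89675132) stood at 517, 524 and 341 CPM, with an interval of 495 to 540.2 in the saline mouse, and the mean over mice was 11.7 times that of the higher other neuron class after 5 CPM were added to both. In the GABA-like nuclei Kcnn3 stood at 36.9, 39.3 and 28.3 CPM and in the VGLUT2-like nuclei at 22.3, 40.8 and 32.5. Kcnj6 stood at 1378, 1591 and 1058 CPM in dopamine-like nuclei and at 181, 185 and 179 in VGLUT2-like nuclei, a ratio of 7.22 by the same measure. Kcns3 stood at 212, 246 and 141 CPM, a ratio of 4.59, and Kcnd3 at 1360.2, 1549.9 and 1080.0, a ratio of 4.48. For all 4 each mouse had a higher level in the dopamine-like class than in the other neuron classes.

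GABA-like nuclei had the highest ratios for Kcnt2 (2.17), Kcnmb2 (1.43), Kcnc1 (1.25) and Kcnip1 (1.19). Kcnt2 stood at 189, 221 and 142 CPM there and at 74.3, 57.7 and 114 in dopamine-like nuclei. Kcnc1, the fast-firing subunit, stood at 242, 170.2 and 214 CPM in GABA-like, 182, 149.8 and 167 in VGLUT2-like and 23, 20.1 and 24.7 in dopamine-like nuclei. Kcnmb2 stood at 168, 131 and 233 CPM in GABA-like and 90.8, 129 and 148 in VGLUT2-like nuclei, values that lay close in IFN-γ replicate 1. Kcnmb2 was highest in GABA-like cluster 23, at 817, 762 and 642 CPM, which held 14, 15 and 35 nuclei, and the part of that cluster in the class level was not tested. Kcnip1 stood at 345, 342 and 351 CPM against 247, 335 and 290.5, and the same mouse showed little difference.

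VGLUT2-like nuclei had the highest ratios for Kcnh1 (2.15), Kcnh7 (2.09), Kcnq5 (1.30) and Kcnd2 (1.30). Kcnh1 stood at 93.7, 83.6 and 83 CPM there and at 34.3, 49.3 and 29.5 in GABA-like nuclei. Kcnh7 stood at 591, 809 and 809 CPM against 398, 392.4 and 257. Kcnd2 stood at 2086, 2087 and 1839 CPM in VGLUT2-like, 1538, 1835 and 1249 in GABA-like and 756, 612 and 956 in dopamine-like nuclei.

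Other members known from textbooks were level or unequal across the neuron classes. Kcnma1 stood at 931, 1015 and 864 CPM in dopamine-like and at 958, 959 and 892 in VGLUT2-like nuclei. Kcnk2 ran from 51.8 to 71.6 CPM over the 3 classes and mice. Kcnj9, the partner of Kcnj6, stood at 5.75, 5.47 and 3.59 CPM in dopamine-like but at 20.1, 22.5 and 19.5 in GABA-like nuclei. Kcnj11 ran from 1.5 to 6.12 CPM and Kcnj2 from 1.46 to 7.42 over the neuron classes. Kcna2 stood at 14.5, 27.4 and 22.4 CPM in dopamine-like and at 56.3, 61.8 and 57.4 in GABA-like nuclei.

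**Figure D4:**
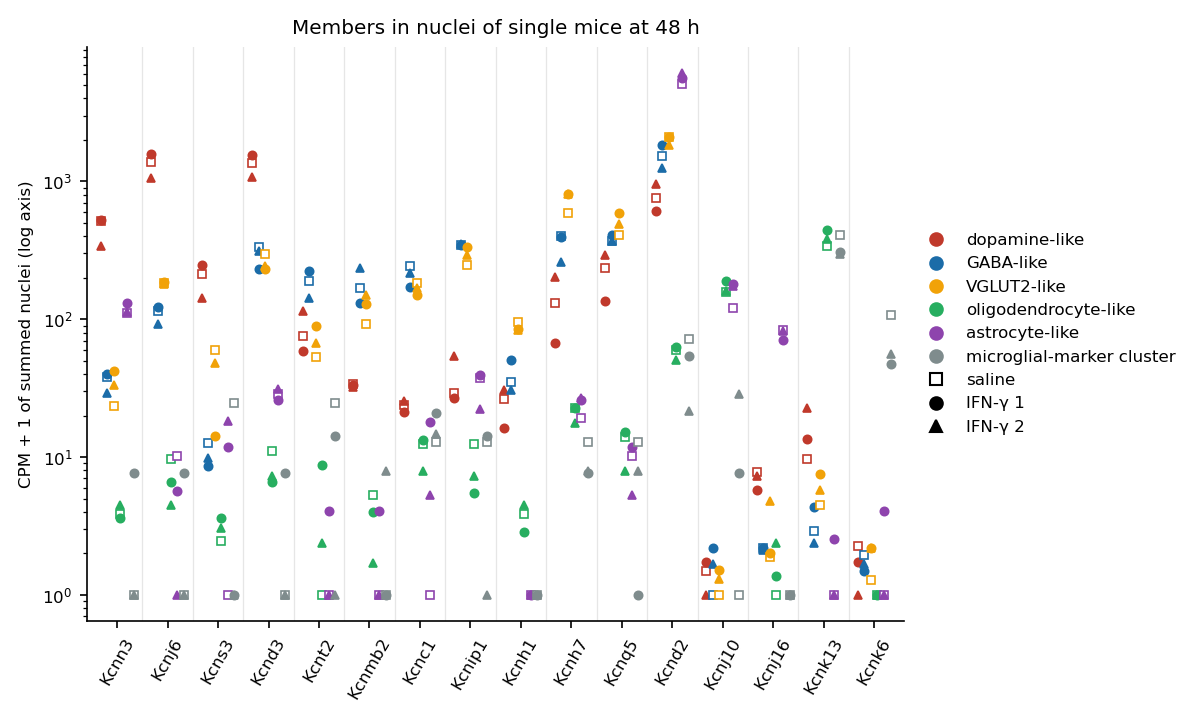
CPM + 1 on a log axis of 16 members in 6 classes of single nuclei, each point the summed counts of 1 mouse (1 saline, 2 IFN-γ). Kcnn3 stands at 341 to 524 CPM in dopamine-like nuclei and at 22.3 to 40.8 in the other neuron classes.

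Several members were high in glial nuclei. Kcnj10 stood at 156, 187 and 160.0 CPM in oligodendrocyte-like and at 119, 179 and 172 in astrocyte-like nuclei, and at most at 1.2 in a neuron class. Its partner Kcnj16 stood at 82.5, 69.5 and 81.6 CPM in astrocyte-like nuclei. Kcnk13 stood at 341, 442 and 384 CPM in oligodendrocyte-like nuclei and at 405, 304 and 297 in the cluster with microglial markers. Kcnq3 stood at 1284, 1097 and 999 CPM, Kcna1 at 461, 346 and 337 and Kcna6 at 169.9, 162 and 154 in oligodendrocyte-like nuclei, and Kcnd2 at 5057, 5664 and 6102 in astrocyte-like nuclei. Kcnd2 in oligodendrocyte-like nuclei stood at 59, 61.8 and 49.9 CPM. Kcnip3 stood at 266, 250.4 and 241 CPM and Kcnn2 at 962, 907 and 786 in astrocyte-like nuclei, which numbered 21, 135 and 37. Kcnk6, the member nearest the minimum, stood at 107, 46.3 and 55.2 CPM in the cluster with microglial markers, from 9, 7 and 8 counts. In NeuN− wells at 24 h markers of oligodendrocytes, in whose nuclei Kcnq3, Kcna1 and Kcnk13 were high, were lower, and markers of astrocytes, in whose nuclei Kcnd2 and Kcnip3 were high, were higher. At 6 h, where Kcnd2 was lower, the astrocyte sums of the groups overlapped. The part of cell class in those differences was not tested.

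The effect of IFN-γ at 48 h was tested within each neuron class on counts summed per mouse, where the lone saline mouse is assumed to vary like the IFN-γ mice. In dopamine-like nuclei edgeR called 0 of 59 tested members, against 0.12% of all tested genes; 3 had an unadjusted p under 0.05, and DESeq2 called 0. Kcnn3 had a log2 fold change of −0.25 (SE 0.23), Kcnj6 −0.05 (SE 0.25) and Kcnd3 −0.04 (SE 0.24), all with an adjusted p of 1. In GABA-like nuclei edgeR called 0 of 66, against 0.111%; 1 had an unadjusted p under 0.05, and DESeq2 called 0. Members and all tested genes shared a median of 0.01 in both classes. In VGLUT2-like nuclei 2 of 67 were called, both higher, against 0.144% of all tested genes higher and 0.202% called, with a median of 0.06 against 0.01; 18 had an unadjusted p under 0.05, and DESeq2 called 0. Partner genes gave 0 calls with edgeR in each class, with 31, 32 and 33 tested and 1, 2 and 1 at an unadjusted p under 0.05 in dopamine-, GABA- and VGLUT2-like nuclei.

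The called members in VGLUT2-like nuclei were Kcnh8 and Kcnip3. Both calls rest on the spread assumed for the lone saline mouse, so no effect of IFN-γ is read from them. Kcnh8 (ENSMUSG00000035580.10, chromosome 17, 52602709 to 52979194) stood at 14.2 CPM (95% interval 10.5 to 18.7) in the saline mouse and at 39 (34.1 to 44.3) and 60.2 (52.2 to 69.1) in the IFN-γ mice, a log2 fold change of 1.75 (SE 0.28, adjusted p = 0.0102). Kcnip3 stood at 7.52 CPM (4.91 to 11) in the saline mouse and at 25.5 (21.6 to 29.9) and 23 (18.2 to 28.7) in the IFN-γ mice, a log2 fold change of 1.66 (SE 0.30, adjusted p = 0.0273). The log2 ratios to the saline mouse were 1.42 and 2.06 for Kcnh8 in IFN-γ replicates 1 and 2, and 1.71 and 1.58 for Kcnip3. Both calls ended with DESeq2 and at a clustering resolution of 0.5, and with 1 saline mouse the treatment cannot be told apart from that mouse.

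The class was made of clusters in unequal shares. Cluster 3 held 84, 294 and 77 nuclei, cluster 12 held 17, 61 and 46, and cluster 19 held 48, 9 and 32. Kcnh8 stood at 60.6, 174 and 174 CPM in cluster 12 but at 15.6, 13.4 and 38.6 in cluster 3, and Kcnip3 at 10.7, 45.8 and 43.0 in cluster 12 and at 14.9, 22.7 and 30.4 in cluster 3. Levels in cluster 19 are not reported here. In the saline mouse both genes stood lower in the whole class than in cluster 3 or cluster 12. The part of the cluster shares in the calls was not tested. In cluster 3 alone, an alternative chosen after seeing the data, the log2 fold changes were 0.51 for Kcnh8 and 0.77 for Kcnip3, each with an adjusted p of 1. Of 7 tested dopamine markers Nr4a2, at 4.92, 18.9 and 20.1 CPM, was also called higher in this class. Of 5 tested thalamic markers Tcf7l2 was, at 46.3, 90.1 and 86.5 CPM. In each list 2 had an unadjusted p under 0.05. Tcf7l2 was also among the genes with the highest ratio to other nuclei in GABA-like cluster 4, so it did not mark thalamic nuclei alone. The part of these markers in the calls was not tested. In NeuN+ wells at 48 h Kcnh8 stood at log2 0.22 (SE 0.15) and Kcnip3 at −0.21 (SE 0.21), not called.

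Over all bulk comparisons of IFN-γ with saline, 21 of 46 tested members were called at least once, against 26.2% of all tested genes, and 25 never were. The 21 members gave 36 calls in 209 tests, against 9.53% of the tests of all genes. Of the 36 calls 16, or 44.4%, had groups that did not overlap, against 56.6% of the calls over all genes. With each well left out in turn 25, or 69.4%, held in every fit that tested the gene, against 59.9%. A fit whose filter dropped the gene did not count as a loss. Among the members with no call were Kcnma1, Kcnk2, Kcnn3 and Kcnq1ot1. Against the saline wells of all time points Kcnk2 was called in NeuN+ and Kcnq1ot1 in NeuN− wells at 6 h, and without the filter Kcnn3 was called in NeuN+ wells at 72 h. Kcnj10 was tested at 48 h and 72 h in NeuN− wells, with log2 fold changes of 0.35 (SE 0.38) and −0.07 (SE 0.31).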

How the data were processed

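The deposited tables hold counts of unique molecular identifiers per gene, for 84 plate wells and for single nuclei. The authors aligned reads to GRCm38 with STAR after trimming poly(A) tails, used a Gencode vM10 annotation, collapsed identifiers and, for single nuclei, counted whole gene bodies with introns. Doublets had been removed by the authors. Members and lists were chosen with earlier results of these data known. Coordinates come from Gencode vM21 on the same build, where all 69 members matched by ID.

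Well counts were tested with edgeR 4.0.16 in R 4.3.3 (TMM factors, filterByExpr, quasi-likelihood F test), and p-values were adjusted by Benjamini-Hochberg over all genes tested. Counts of 20962 to 1684374 per well set the precision, and shallow NeuN− wells tested the fewest genes. SE is the standard error of the log2 fold change. Single nuclei were clustered by Leiden (leidenalg 0.10.2) on variable genes other than Kcn genes, and counts were summed per mouse and class, with genes of at least 10 counts tested. Clusters of other or unclear class were not analysed here.

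Named members were, by rule, the called members (at most 6 per direction and comparison, 4 in nuclei), the 6 with the largest fold change in each direction between fractions, the 4 with the highest class ratio (at least 20 CPM in each mouse) and a list of textbook members. A few genes that the rule takes are not reported here. Of the partner and marker genes, up to 3 called per direction were named with the most abundant. Alternatives were size factors by relative log expression, no filter, filterByExpr for nuclei, DESeq2 1.42.0, saline wells pooled over time, a fit of 42 wells at once, all 84 wells with treatment, thinned NeuN+ counts, each well left out in turn and cluster resolutions of 0.5 and 2. Chosen after seeing the data were sex-matched saline wells at 24 h and the largest cluster of a class.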

Additional observations from a re-analysis of the deposited data

Results flagged for a closer look

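A well stood apart from its group in 5 of 72 groups of called members, and chance flags about 1 in 20 groups. Kcnip3 stood at 339 CPM in IFN-γ replicate 5 of the NeuN− fraction at 24 h, where the other wells reached 163. Kcnip4 stood at 4605 CPM in NeuN+ saline replicate 5 at 6 h, where the next was 2739, and Kcnd2 at 2107 in that well, where the next was 1817. Kcnh1 stood at 60.9 CPM in NeuN+ IFN-γ replicate 12 at 24 h, below the next at 74.9, and Kcnq5 at 756 in NeuN+ saline replicate 8 at 72 h, above the next at 693.

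The interaction of fraction and IFN-γ at 24 h was called for 8 members. The NeuN+ minus NeuN− log2 fold change was 1.18 for Kcnq3, 1.18 for Kcnk13, 1.09 for Kcna1, −0.80 for Kcnd2, −1.03 for Kcnip3, −1.58 for Kcnd3, −1.91 for Kcnk10 and −2.18 for Kcnj6. Kcnd3, Kcnk10 and Kcnj6 were too low in NeuN− wells to be tested there and passed the filter by their NeuN+ counts. The count of 8 includes them, but no difference is read from their values. The calls of Kcnip3 and Kcnj6 ended with DESeq2, those of Kcna1 and Kcnj6 without the filter, and those of Kcnk13, Kcna1, Kcnip3, Kcnk10 and Kcnj6 with NeuN+ counts thinned.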

How the results depend on the processing

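Of 214 member values under other size factors, DESeq2, other saline groups and other settings for nuclei 186 kept their direction and their side of the threshold, 27 kept only the direction and 1 reversed: Kcnd2 in NeuN− wells at 72 h became 0.014 on the log2 scale against saline wells of all time points. With that saline group 6 members were called in NeuN− wells at 6 h, 0 at 48 h and 0 at 72 h. Genes called in all were then 1188, 114 and 76, where the main fits called 881, 146 and 116. In 1 fit of all 42 wells 5 were called in NeuN− wells at 6 h, 1 in NeuN− wells at 48 h and 3 in NeuN+ wells at 6 h. The same fits called 968, 187 and 654 genes in all, against 881, 146 and 777. DESeq2 called 1 member in NeuN− wells at 48 h, 49 between fractions, 2 and 1 for the interaction at 6 h and 48 h, 1 across saline NeuN− wells and 0 in VGLUT2-like nuclei. In that order it called 106, 6450, 548, 122, 42 and 9 genes in all. The main fits called 146, 3423, 516, 45, 65 and 35. Without the filter 1 was called in NeuN+ wells at 48 h, 9 at 72 h, 55 between fractions and 4 across saline NeuN+ wells. Of all genes it called 192, 733, 7233 and 296, where the main fits called 87, 674, 3423 and 43. With NeuN+ counts thinned, which leaves fewer counts, 0 were called at 6 h, 3 at 24 h, 2 at 72 h and 4 for the interaction at 24 h. Thinning left 60, 76, 46 and 388 genes called in all, of 777, 1086, 674 and 845 in the main fits. The largest cluster gave 2 in dopamine-like and 0 in VGLUT2-like nuclei, and resolution 0.5 gave 0 in the latter. Genes called in all were then 48, 16 and 58, where the main fits called 19, 35 and 35. The causes of these differences were not tested. No filter, the fit of 42 wells and thinning were compared by calls alone. With each well left out in turn, NeuN− wells gave 3 to 5 called members at 6 h, 4 to 6 at 24 h, 1 to 3 at 48 h and 1 to 1 at 72 h, and NeuN+ wells 4 to 8, 11 to 14, 0 to 1 and 5 to 7. Over those fits 40 member values lost their call and 0 reversed. The number of all genes called in those fits is not reported here, so the ranges have no share of all genes beside them. In NeuN− wells, which held fewer counts, 8 to 11 of the 69 members were tested. No paired analysis was possible because replicate numbers only name wells and do not pair IFN-γ with saline.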
